A study of Mus musculus with 18 samples.

Results

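Plagl1, Mest, Impact, Peg10, Sgce and Grb10 are 6 mouse imprinted genes whose control regions are known to carry DNA methylation on the maternal copy, and their H3K9me3 was read in embryonic stem cells (mESCs) with and without UHRF1 or DHX9. They were taken by name from the 35858 genes of the deposited annotation, a choice made with earlier results of these data known. Each gene was given a window of its transcripts plus 10 kb on each side, and every H3K9me3 peak in that window was collected in each library. The measurement was H3K9me3 ChIP-seq of the line ES-E14TG2a grown with serum and LIF, with no treatment. Wild-type (WT), UHRF1KO and DHX9KO cells had 2 libraries each. The study's methods describe the Uhrf1 mutants as CRISPR-Cas9 knockouts in mESCs that hold an inducible 8x-tetO-eGFP silencing reporter, and the clone behind each library is not given in the sources used here, nor is the making of the DHX9KO line. The peak lists hold no RNA or protein measurement, so the knockouts themselves and the cell type were not checked here.

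An imprinted gene is expressed from the maternal or the paternal copy only, and the choice is written as DNA methylation in the egg or the sperm. At a maternally methylated control region the methylated copy also carries H3K9me3, because the zinc finger protein ZFP57 binds the methylated hexamer TGCCGC and brings TRIM28 and the H3K9 methyltransferase SETDB1. UHRF1 reads half-methylated DNA behind the replication fork and brings DNMT1, which copies the methylation to the new strand. DHX9 is an RNA helicase that unwinds RNA and RNA-DNA hybrids.

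Short windows of the reference genome show the loci at the level of bases, because they hold the parts of the loci that behaved differently. A script read them from the mm10 (GRCm38) assembly on the plus strand, each 200 bases long, as the window with most TGCCGC hexamers outside annotated untranslated regions. Capitals mark the hexamer, written TGCCGC or, when it lies on the minus strand, GCGGCA. The Plagl1, Mest and inner Grb10 windows lie under a WT peak that was absent in UHRF1KO, in the case of Grb10 in 1 of the 2 libraries. The Peg10 coding window lies under a peak found in all 6 libraries, and the remaining windows lie in CpG islands that no library had under a peak.
Plagl1 start site, chr10:13090566-13090765: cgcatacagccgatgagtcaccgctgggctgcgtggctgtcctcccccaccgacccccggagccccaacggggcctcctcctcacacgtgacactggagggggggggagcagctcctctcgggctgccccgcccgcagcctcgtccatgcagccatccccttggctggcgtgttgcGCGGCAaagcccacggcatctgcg
Mest start region, chr6:30737789-30737988: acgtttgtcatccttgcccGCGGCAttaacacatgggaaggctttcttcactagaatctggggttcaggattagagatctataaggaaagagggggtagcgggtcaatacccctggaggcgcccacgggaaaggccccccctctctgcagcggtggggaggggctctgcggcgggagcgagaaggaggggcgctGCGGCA
Grb10 inner island, chr11:12026065-12026264: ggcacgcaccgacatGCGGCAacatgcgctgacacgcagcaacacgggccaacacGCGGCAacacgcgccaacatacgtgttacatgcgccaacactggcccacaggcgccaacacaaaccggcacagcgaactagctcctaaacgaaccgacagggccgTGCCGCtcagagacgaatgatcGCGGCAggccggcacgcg
Peg10 coding exon, chr6:4754710-4754909: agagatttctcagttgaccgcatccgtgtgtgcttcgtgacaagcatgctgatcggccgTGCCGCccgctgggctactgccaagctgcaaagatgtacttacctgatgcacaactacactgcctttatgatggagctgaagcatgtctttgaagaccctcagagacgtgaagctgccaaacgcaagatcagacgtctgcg
Peg10 and Sgce shared island, chr6:4747760-4747959: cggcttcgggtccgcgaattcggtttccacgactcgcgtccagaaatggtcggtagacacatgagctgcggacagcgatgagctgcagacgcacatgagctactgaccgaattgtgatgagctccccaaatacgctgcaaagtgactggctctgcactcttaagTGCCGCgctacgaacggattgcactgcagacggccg
Grb10 outer island, chr11:12036972-12037171: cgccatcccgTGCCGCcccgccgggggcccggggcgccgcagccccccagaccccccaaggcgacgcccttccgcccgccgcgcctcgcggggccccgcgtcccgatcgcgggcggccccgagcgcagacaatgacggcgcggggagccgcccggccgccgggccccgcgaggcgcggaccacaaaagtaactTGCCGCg
The Plagl1 window lies between genes just before the Plagl1 start, the Mest window in an intron of the longest Mest transcript, and both Grb10 windows and the shared window in introns. They held 1 hexamer at Plagl1, 2 at Mest, 4 in the inner Grb10 island, 1 in the Peg10 exon, 1 in the shared island and 2 in the outer Grb10 island. Of the central 200 bases of all 101845 stretches with H3K9me3 in both WT libraries, 2.47% held the hexamer on either strand. The windows shown were picked for the hexamer, so their counts are a description and are not to be set against that share.

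At Plagl1, Mest and Impact the H3K9me3 peak over the start site was present in both WT and both DHX9KO libraries and in neither UHRF1KO library. Peg10 and Sgce, which share a promoter, had no peak there in any of the 6 libraries, and their main peak, inside the Peg10 coding sequence, stayed in UHRF1KO. Grb10 was in between, as its inner start site had a peak within 1 kb in UHRF1KO replicate 2 but not in UHRF1KO replicate 1. Of its 10 stretches, defined below, 6 were lost in UHRF1KO, against 29.3% of all stretches. Peaks at start sites were uncommon to begin with, as 18.0% of the 74544 start sites of the annotation had a peak within 1 kb in both WT libraries. Of those start sites, 38.3% had no peak in either UHRF1KO library and 11.0% had none in either DHX9KO library. Among the 6 genes, 4 had such a start site, 3 of them (Plagl1, Mest and Impact) lost the peak at every called start in UHRF1KO, and none lost it in DHX9KO.

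**Figure D1:**
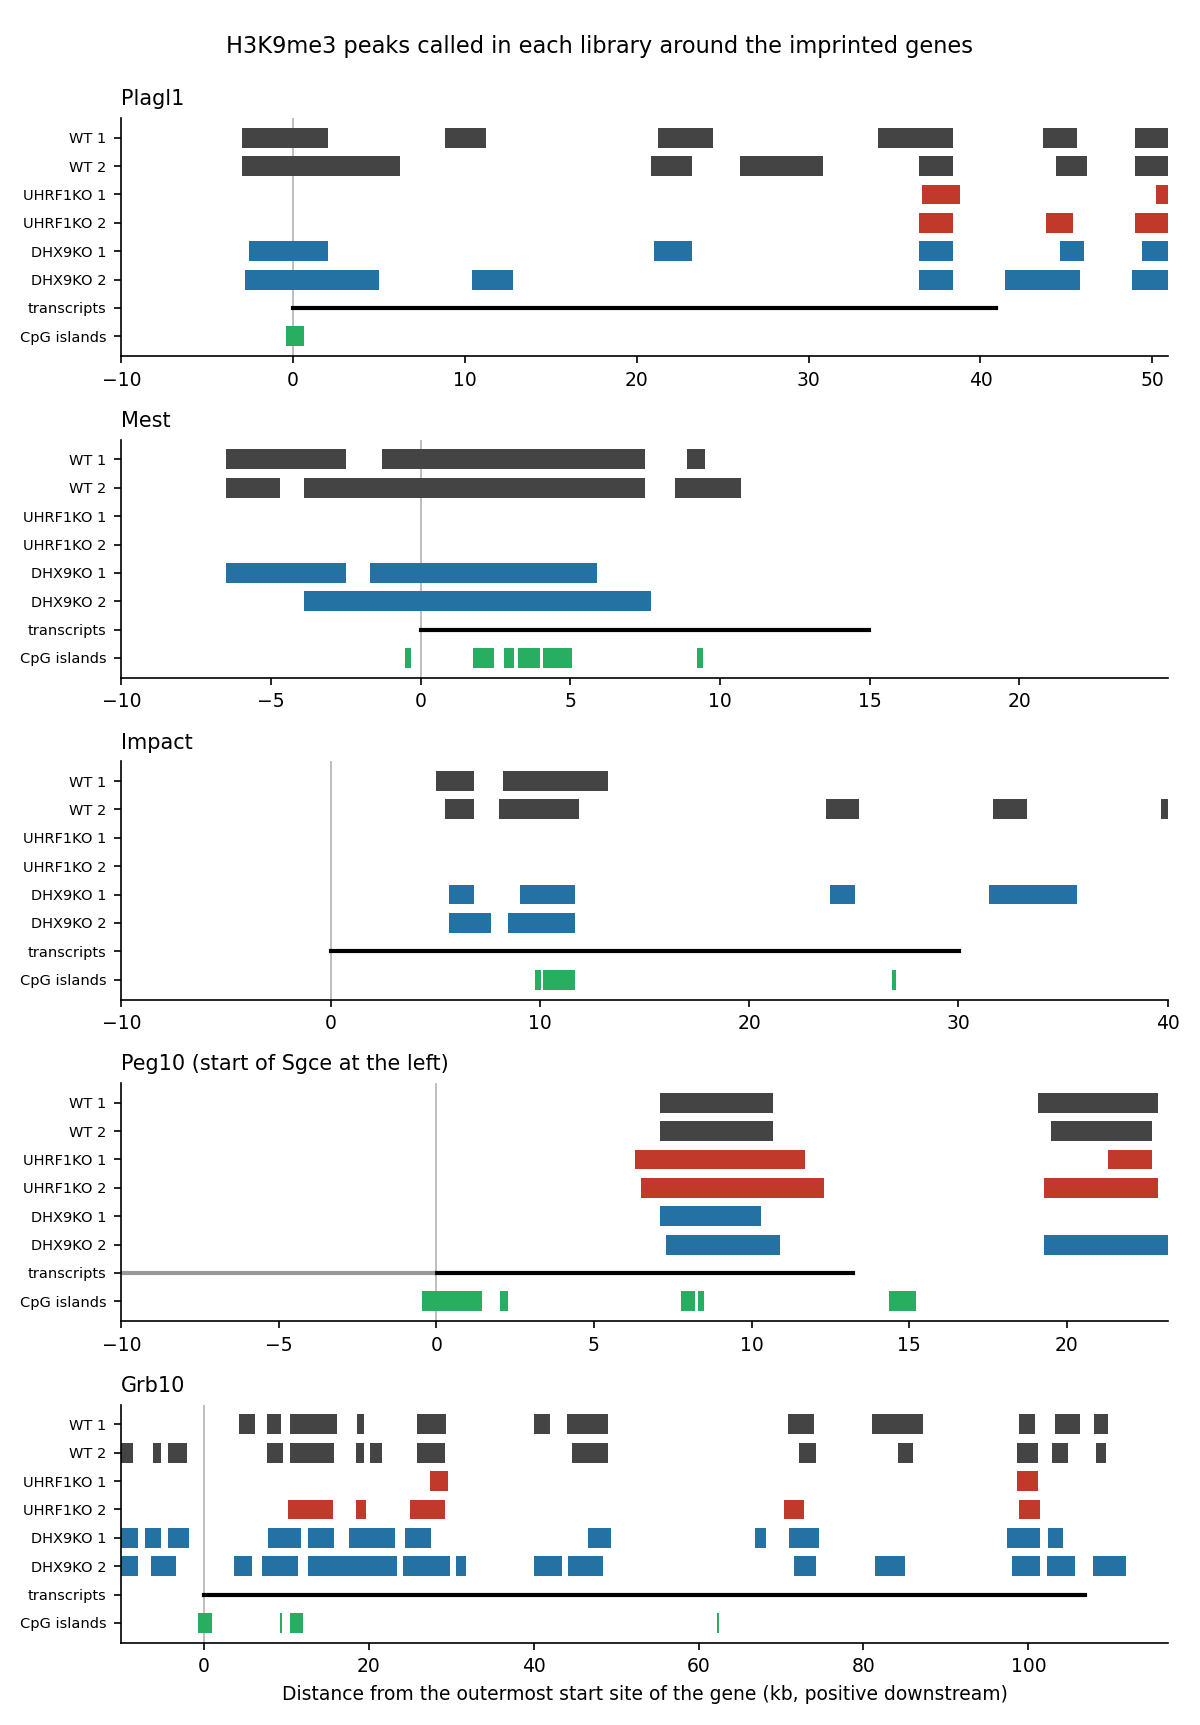
H3K9me3 peaks (bars) in each of the 6 libraries against distance from the outermost start site of each gene in kb, with transcripts (black; Sgce in grey) and CpG islands (green) below. The bars over the starts of Plagl1 and Mest and over the Impact islands are missing in both UHRF1KO rows, the bars inside Peg10 are present in all 6 rows, and the island between Peg10 and Sgce is under no bar.

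A stretch was any run of at least 600 bp that lay under a peak in both WT libraries, and it was called lost when neither knockout library had a peak over its centre. The 6 windows held 24 stretches, 1 of them shared by Peg10 and Sgce, and 15 of the 24 were lost in UHRF1KO, against 29.3% of all stretches. In DHX9KO 3 of the 24 were lost, against 11.1% of all stretches. Among stretches with a mean WT log2 fold of at least 1.5 the share lost was 7.57% in UHRF1KO and 4.58% in DHX9KO. In the 6 windows 4 stretches were that strong, at Plagl1, Mest, Impact and just before the inner start site of Grb10. All 4 were lost in UHRF1KO and 0 in DHX9KO. The inner Grb10 start site itself still had a peak within 1 kb in UHRF1KO replicate 2. This limit was chosen after the values were seen, and the count rests on where it lies. The Grb10 stretch was just inside it at 1.504, and the main Peg10 stretch, kept in UHRF1KO, was just outside it at 1.48. Both knockouts were set against the same WT libraries.

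The libraries differed in the ChIP reads that fell in peaks, which mix depth with enrichment. The WT and DHX9KO lists held 19543177 to 20875020 ChIP reads in peaks, UHRF1KO replicate 2 held 16966576, and UHRF1KO replicate 1 stood apart with 6703081 in 70195 peaks. The study's methods describe subsampling to a common number of reads. By the constants in the log2 folds of lists that hold the same background reads, the total ChIP reads used in peak calling were 1.85 times as many in UHRF1KO replicate 2 as in UHRF1KO replicate 1, while those of the WT and DHX9KO libraries lay within 1.16 times of each other. Without UHRF1KO replicate 1 the same 15 of 24 was lost and the share over all stretches was 31.1%. With UHRF1KO replicate 1 alone it was 19 of 24, against 59.4% of all stretches. At peaks with identical limits the WT and DHX9KO lists held the same background reads and the UHRF1KO lists held others, so in UHRF1KO against WT the genotype cannot be told apart from the background. An exact two-sided permutation test of 2 libraries against 2 cannot go below p = 0.333, so no single value per library was tested alone. The labels describe 2 biological replicates, and whether these were separate clones or cultures of 1 clone is not given in the sources used here.

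Mest, which encodes a hydrolase-like enzyme of mesoderm and is expressed from the paternal copy, lay at chr6:30733506-30748466 on the plus strand. Its start-region peak spanned 8800 bp in WT replicate 1, with 721 ChIP reads over 188 background reads. In WT replicate 2 the peak spanned 11400 bp and held 723 ChIP reads over 231. The log2 fold over background, as the peak caller gave it, was 2.10 and 1.86 in these libraries. No peak was called anywhere in the 34961 bp window in either UHRF1KO library, and all 4 stretches of the window were lost. Peaks within 20% of the width of the shared 8800 bp held a median of 255 ChIP reads in UHRF1KO replicate 1 and of 332 in UHRF1KO replicate 2, against 352 and 336 in WT. The lists do not give the reads at a place without a peak. In DHX9KO the peak held 391 reads over 166 background reads in replicate 1 and 597 over 233 in replicate 2, at log2 folds of 1.24 and 1.37. Both DHX9KO values lay below both WT values.

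Impact, which encodes an inhibitor of the translation kinase GCN2 and is expressed from the paternal copy, lay at chr18:12962942-12992950 on the plus strand. Its strongest stretch covered inner start sites in the first part of the gene, chr18:12971201-12974800, and the outermost start site had no peak in any library. The WT peaks held 490 ChIP reads over 119 background reads and 462 over 107. Their log2 folds of 2.20 and 2.33 were the highest in WT at the 6 genes. Neither UHRF1KO library had a peak anywhere in the window, where WT had 2 and 5. DHX9KO replicate 1 had 262 reads over 82 and DHX9KO replicate 2 had 306 over 93, at log2 folds of 1.68 and 1.73, again below both WT values. Mest and Impact were the only windows of the 6 that held no peak at all in UHRF1KO, whereas 15.2% of the 24821 gene windows with a peak in both WT libraries did so. No window of the 6 lost every peak in DHX9KO, where the share over all windows was 2.31%.

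Plagl1, a zinc finger transcription factor that restrains cell growth, lay at chr10:13090788-13131694 on the plus strand, and the noncoding RNA gene Hymai starts just inside it. The peak over the start held 315 ChIP reads over 94 background reads across 5000 bp in WT replicate 1. In WT replicate 2 it held 494 over 179 across 9200 bp, and the log2 folds were 1.90 and 1.68. Neither UHRF1KO library had a peak there. The other end of the gene differed. A stretch over the last coding exon, chr10:13127201-13129200, was 2000 bp long. Its WT peaks held 204 and 153 reads at log2 folds of 1.05 and 1.80. Both UHRF1KO libraries still had a peak there, with 37 reads over 36 background reads and 79 over 38. Their log2 folds of 0.58 and 0.71 lay below both WT values. In all, 3 of the 6 Plagl1 stretches were lost and 3 kept. Another kept stretch, chr10:13139801-13142400, had log2 folds of 1.30 and 1.26 in WT and of 0.98 and 0.67 in UHRF1KO. The remaining kept stretch had a peak in UHRF1KO replicate 2 alone. The share of all stretches with both UHRF1KO values below both WT values is not given here. In DHX9KO the start-site peak had log2 folds of 1.13 and 1.36, both below the WT values, with 186 and 386 ChIP reads.

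**Figure D2:**
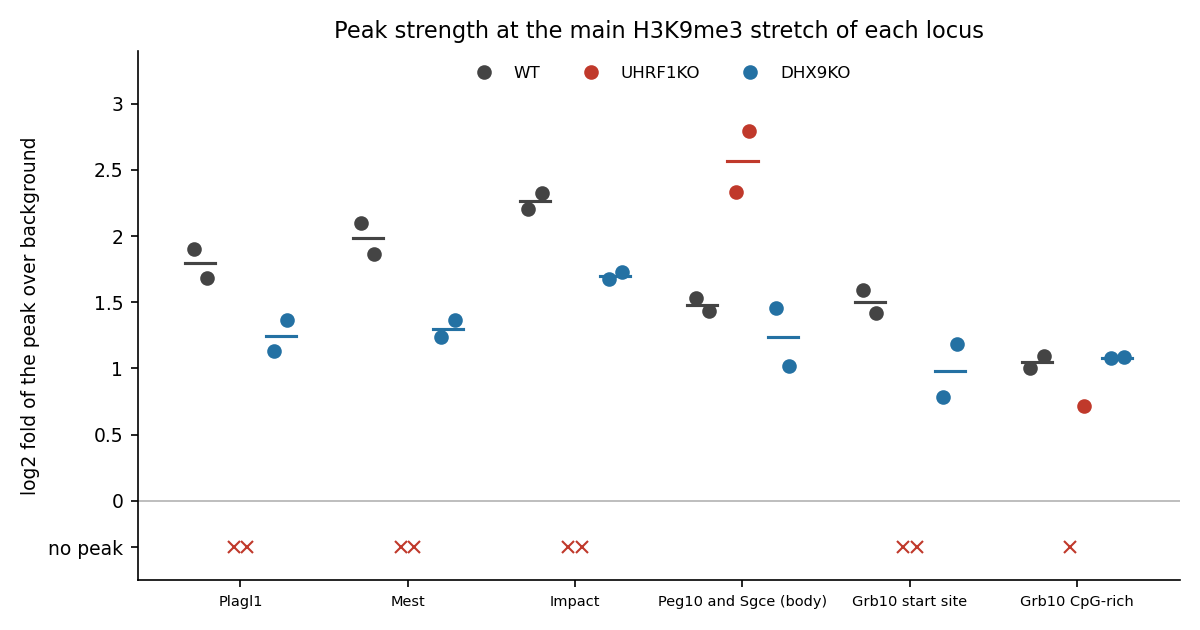
The log2 fold of ChIP over background (vertical axis) of the peak over the main stretch of each locus, 1 point per library, with a bar at the mean of 2 libraries and a cross where a library had no peak. UHRF1KO has crosses at Plagl1, Mest, Impact and the Grb10 stretch just before the inner start site, and lies above WT inside Peg10 at 2.33 and 2.80. A cross also marks UHRF1KO replicate 1 at the CpG-rich Grb10 stretch just after that start.

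Peg10 and Sgce are expressed from the paternal copy and start 102 bp apart in opposite directions on chromosome 6. Peg10 derives from a retrotransposon and is needed for the placenta, and Sgce encodes epsilon-sarcoglycan, a membrane glycoprotein. Over their shared starts lay a CpG island of 1898 bp at chr6:4746843-4748740, with 139 CpG sites and 3 hexamers, and no library had a peak on any part of it. The main stretch began 7095 bp into Peg10, chr6:4754401-4758000, mostly in its coding sequence. The WT peaks there held 266 and 239 ChIP reads over 103 background reads each, at log2 folds of 1.53 and 1.43. In UHRF1KO the peak was wider, 5400 bp with 263 reads over 76 and 5800 bp with 750 reads over 85, at log2 folds of 2.33 and 2.80. Both UHRF1KO values lay above both WT values, which was the case for 40.3% of the 39483 stretches called in all 4 libraries. Per kb of peak the order was less clear, with 73.9 and 66.4 reads in WT and 48.7 and 129 reads in UHRF1KO. These reads were not scaled for depth. Over all peaks of a list they were 50.1 and 48.7 per kb in WT and 32.9 and 49.6 in UHRF1KO replicates 1 and 2.

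The same Peg10 peak in DHX9KO held 238 reads over 87 and 212 over 105, at log2 folds of 1.45 and 1.02, and overlapped the WT values. A weaker stretch past the 3′ end of Peg10 was called in 1 of 2 UHRF1KO libraries at its centre and in DHX9KO replicate 2. Sgce had no stretch of its own, since each peak of its long body was called in only 1 WT library. An inner Sgce start at position 4694841 of chromosome 6 had a peak in both DHX9KO libraries, with 46 and 131 reads at log2 folds of 0.88 and 0.95, and in no WT or UHRF1KO library, a pattern found at 0.636% of all start sites. The share of the Sgce window under peaks was 5.39% and 3.67% in WT, 3.88% and 3.67% in UHRF1KO, and 9.48% and 10.8% in DHX9KO. These 2 DHX9KO values lay above all others, which was so for 8.62% of the 24821 gene windows with a peak in both WT libraries. The DHX9KO peaks of the window, the Peg10 peak included, had log2 folds of 0.61 to 1.45.

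Grb10, an adaptor protein that restrains insulin and growth factor signalling, lay at chr11:11930499-12037422 on the minus strand, and is expressed from the maternal copy in most tissues and from the paternal copy in neurons. Its outer start sites, at a CpG island of 1799 bp with 217 CpG sites, had no peak in any library. At its inner start site, position 12027971, WT had a pair of neighbouring peaks. The stretch just before that start held 81 and 78 ChIP reads over 30 and 34 background reads, at log2 folds of 1.59 and 1.42, and had no peak in UHRF1KO. The stretch just after it, chr11:12021601-12027000, covered an island of 1313 bp with 143 CpG sites. It held 251 and 240 reads at log2 folds of 1.00 and 1.09 in WT, had no peak in UHRF1KO replicate 1, and had a peak of 190 reads over 91 at 0.72 in UHRF1KO replicate 2. Its absence was thus seen in UHRF1KO replicate 1 alone, and the stretch counted as kept.

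In the body of Grb10 most WT peaks were weak and 1 stretch had higher log2 folds in both UHRF1KO libraries than in WT. This intronic stretch, chr11:12008201-12011600, had log2 folds of 0.67 and 0.62 in WT and of 1.57 and 1.67 in UHRF1KO. A stretch of 800 bp at chr11:12018001-12018800, at 1.63 and 1.16 in WT, had no peak in UHRF1KO replicate 1 and one at 1.95 in UHRF1KO replicate 2. Peaks covered 37000 and 32022 bp of the Grb10 window in WT, 4800 and 15800 bp in UHRF1KO, and 36222 and 53822 bp in DHX9KO. The 4 WT and DHX9KO libraries lay above both UHRF1KO libraries. At Plagl1 the order was the same, with 18907 and 22107 bp in WT, 2894 and 5494 bp in UHRF1KO, and 11694 and 18694 bp in DHX9KO. With Mest and Impact, 4 of the 6 windows had less cover in both UHRF1KO libraries than in any WT or DHX9KO library, beside 32.5% of the 24821 windows. The UHRF1KO lists covered less of the genome too, 203 and 342 Mb against 399 to 416 Mb in the other lists.

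**Figure D3:**
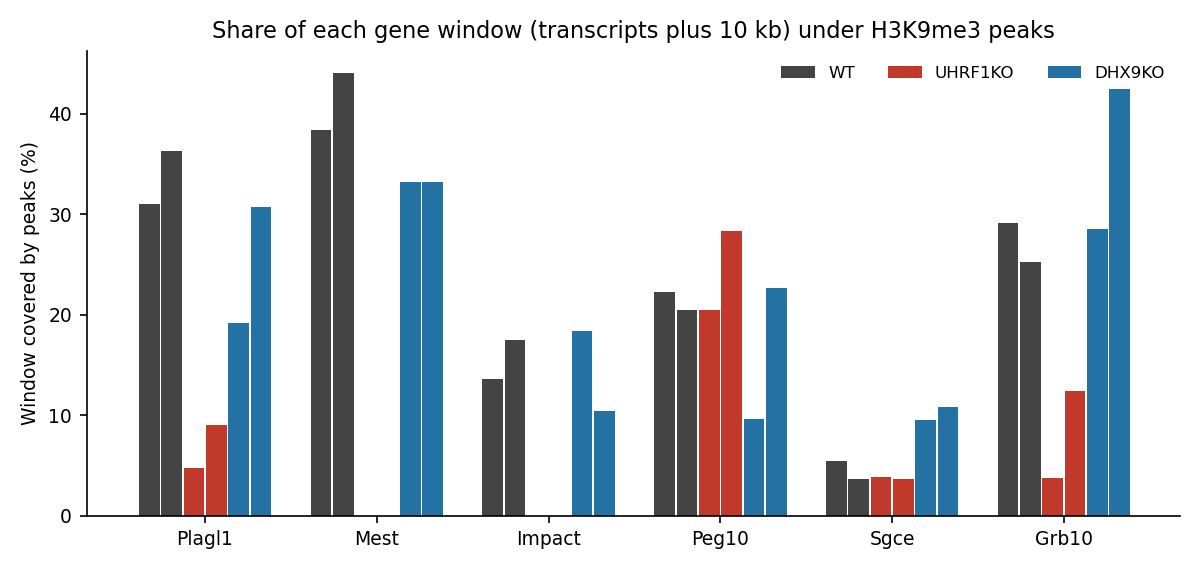
Share of each gene window under H3K9me3 peaks in percent, 1 bar per library. The UHRF1KO bars are absent at Mest and Impact and below all WT and DHX9KO bars at Plagl1 and Grb10, while at Peg10 they reach 20.5% and 28.3% beside 22.3% and 20.5% in WT.

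In DHX9KO the start-site peaks stayed, with lower log2 folds at the strongest start-site stretch of Plagl1, Mest, Impact and Grb10. These 4 stretches were picked by their WT value. The mean log2 fold at the Plagl1 start was 1.79 ± 0.16 (SD, n = 2) in WT and 1.25 ± 0.16 (SD, n = 2) in DHX9KO, and at Mest it was 1.98 ± 0.17 and 1.30 ± 0.091. At Impact it was 2.26 ± 0.090 in WT and 1.70 ± 0.035 in DHX9KO. Just before the inner start site of Grb10 the WT values of 1.59 and 1.42 stood against 0.78 and 1.18 in DHX9KO. Both DHX9KO values lay below both WT values at these 4 sites. In reads per kb of peak this was so at Plagl1 and Mest alone, as Impact had 98.0 and 122 in WT and 101 and 95.6 in DHX9KO, and Grb10 had 45 and 39 in WT and 41.3 and 44.1 in DHX9KO. Log2 folds below both WT values in both DHX9KO libraries were found at 38.3% of all 62927 stretches called in the 4 libraries and at 58.4% of those with a mean WT log2 fold of at least 1.5, so lower values at strong peaks were common across the DHX9KO lists. The differences at the 4 sites were -0.55 at Plagl1, -0.68 at Mest, -0.56 at Impact and -0.52 at Grb10, while the median over the strong stretches was -0.40. At the CpG-rich Grb10 stretch, which also lies within 1 kb of a start site, the difference was 0.034, and inside Peg10 it was -0.24. Another Impact stretch within 1 kb of a start site, chr18:12968401-12969800, was not lower. Its log2 folds were 1.12 and 1.24 in WT and 1.31 and 1.09 in DHX9KO.

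Read counts could be tested where a region was called in all 4 libraries of a comparison and covered over at least 80% in each, by edgeR's quasi-likelihood test with TMM scaling and the called length as offset. Of the 2535 such regions of UHRF1KO against WT none lay in the 6 windows. Over all of them 6.51% had lower counts in UHRF1KO and 2.05% had higher counts at an adjusted p of at most 0.05. For DHX9KO 4721 regions were tested, with 0.508% lower and 0.0424% higher, and 2 of them lay in the windows. The Mest region had 850 and 805 reads in WT and 581 and 597 in DHX9KO, a log2 change of -0.32 (SE 0.13, edgeR adjusted p = 0.335). Without DHX9KO replicate 1 it passed, at -0.38 with an edgeR adjusted p of 0.00405. The Peg10 region had a log2 change of -0.06 (SE 0.18, edgeR adjusted p = 0.941). Neither region was called changed.

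When every region called in all 4 libraries was tested whatever its cover, the Peg10 region was higher in UHRF1KO by a log2 change of 0.63 (SE 0.20, edgeR adjusted p = 0.373), and 0 of 40617 regions passed the threshold in that fit, although 2732 were lower and 1188 higher at an unadjusted p under 0.05. The region at the end of Plagl1 had a log2 change of -0.80 (SE 0.35, edgeR adjusted p = 0.488), and the Grb10 intronic region one of 0.03 (SE 0.31, edgeR adjusted p = 0.986). In the like fit for DHX9KO the Plagl1 start region had a log2 change of -0.41 (SE 0.15, edgeR adjusted p = 0.383) and the Impact region one of -0.21 (SE 0.18, edgeR adjusted p = 0.771). The 16400 bp region around the inner Grb10 start had one of -0.02 (SE 0.13, edgeR adjusted p = 0.981). The higher log2 folds of the intronic Grb10 stretch in UHRF1KO thus stood beside a change in counts near 0.

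The start-site stretches of Plagl1, Mest and Impact were among the most CpG-dense of all stretches, at 2.98, 2.85 and 4.28 CpG sites per 100 bp and at percentiles 97.4, 97.1 and 99.4, where the median over all stretches was 1.13. They held 6, 14 and 5 hexamers, whereas 26.7% of all stretches held any. Over all stretches the share lost in UHRF1KO was 35.9% in the least CpG-dense 10% and 18.9% in the most CpG-dense 10%. Among the 5605 stretches that were in the most CpG-dense 10% and had a mean WT log2 fold of at least 1.5, 3.30% were lost in UHRF1KO and 5.89% in DHX9KO. The 3 start-site stretches were in this small lost group. Whether CpG density sets kept from lost was not tested. Within the 6 windows the Peg10 stretch, inside a coding exon and kept in both UHRF1KO libraries, had 2.69 CpG sites per 100 bp. The CpG-rich Grb10 stretch, kept by UHRF1KO replicate 2 alone, had 3.33. The 15 lost stretches had a median of 1.00 and the 9 kept ones of 1.55, but 4 of the kept ones had a peak in only 1 UHRF1KO library. The hexamer was found in 6 of the 15 lost stretches, 29 times in all, and in 5 of the 9 kept ones, 11 times in all. Over all stretches 30.7% of those without the hexamer were lost in UHRF1KO, 26.0% of those with 1 or 2, 18.6% of those with 3 to 5, and 31.3% of the 195 stretches with 6 or more.

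**Figure D4:**
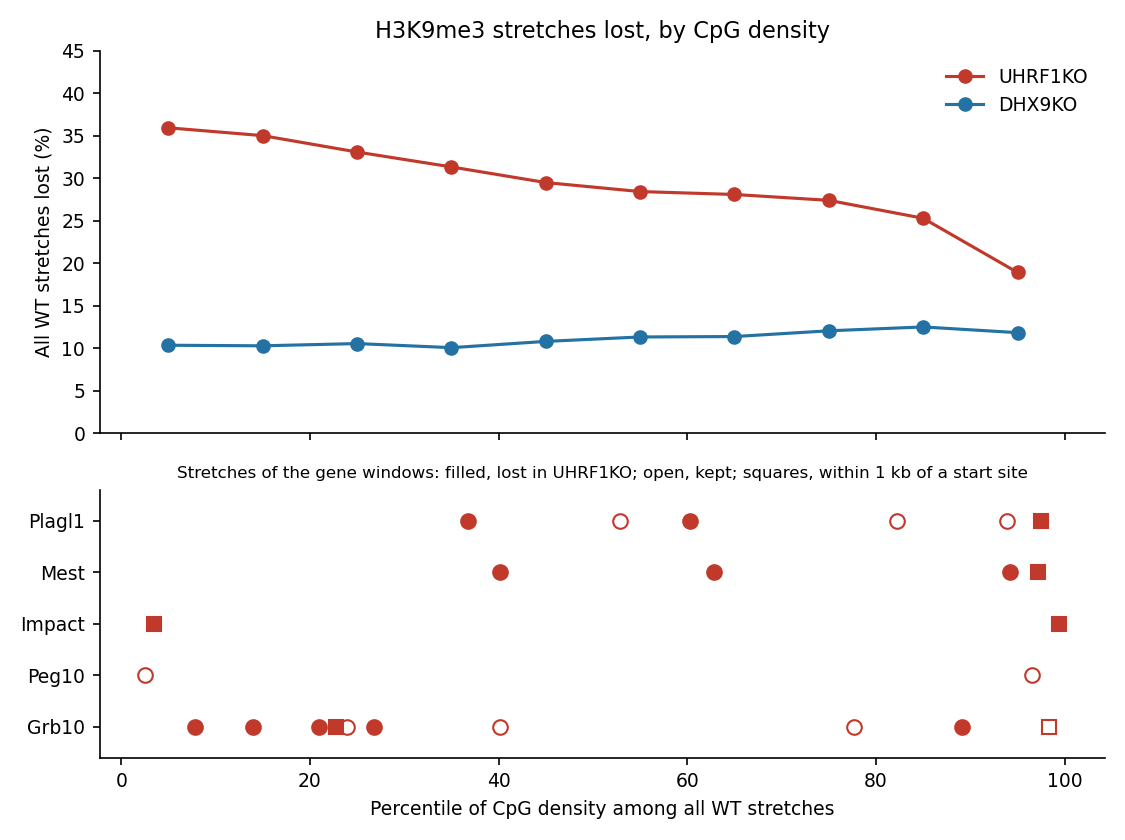
Top, percent of all WT stretches lost in UHRF1KO and DHX9KO in bins of 10% by CpG density; bottom, the CpG density percentile of each stretch in the gene windows, filled where lost in UHRF1KO and open where kept, with squares within 1 kb of a start site. The share lost in UHRF1KO is 35.9% at the left and 18.9% at the right, while the Plagl1, Mest and Impact squares above percentile 97.1 are filled.

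The main CpG islands of Plagl1, Mest and Impact followed the same layout. The island over the Plagl1 start was 1026 bp long with 80 CpG sites and 6 hexamers, and the main Mest island was 973 bp long with 70 CpG sites and 10 hexamers. Both were covered fully by peaks in WT and DHX9KO and not at all in UHRF1KO. The main Impact island, 1567 bp with 117 CpG sites and 4 hexamers, was covered fully in WT, over 97.1% in each DHX9KO library and not at all in UHRF1KO. A pair of smaller islands of 468 and 201 bp inside the Peg10 coding sequence was covered fully in all 6 libraries. Other islands differed. The Grb10 island of 1313 bp was covered fully in WT and in UHRF1KO replicate 2, not at all in UHRF1KO replicate 1, and over 85.5% and 55.1% in DHX9KO. A Mest island of 200 bp at chr6:30742752-30742951 was covered in WT alone. An Impact island of 201 bp at chr18:12989750-12989950 was under no peak in any library.

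Other maternally methylated loci, a list of 14 genes chosen with earlier results of these data known, were set beside the 6. Of these, 11 had a start-site peak in both WT libraries, and all 11 lost it at every called start in UHRF1KO. The study had already named all 11 among loci with less H3K9me3 in Uhrf1 knockout cells. It had named Plagl1, Mest, Impact, H19, Meg3 and Rasgrf1 as well. The count is thus a description and not an independent result. The share over all such start sites was 38.3%, which counts start sites and not genes. None of the 11 lost it in DHX9KO. Mcts2, Zfp787 and Zrsr1 had no start-site peak in both WT libraries: Mcts2 had no stretch, the stretch of Zfp787 was lost in UHRF1KO, and that of Zrsr1 had a peak at 0.84 in UHRF1KO replicate 2. At Airn, the noncoding RNA that silences Igf2r, the WT peaks held 1527 and 1381 reads, UHRF1KO had no peak, and DHX9KO had 706 and 1207 reads. At Peg3, a zinc finger gene, the WT peaks held 806 and 690 reads, UHRF1KO had none and DHX9KO had 416 and 599. Nhlrc1 was less complete, with 1450 and 1296 reads in WT and a remaining peak of 214 reads at a log2 fold of 0.42 in UHRF1KO replicate 2 over the strongest stretch. The strongest stretch in the windows of the paternally methylated H19, Rasgrf1, Meg3 and Zdbf2 was lost in UHRF1KO in 4 of 4. Of their 30 stretches 14 were lost, against 29.3% of all stretches. Only H19 and Meg3 had a start-site peak in both WT libraries, and both lost it. At Rasgrf1 and Zdbf2 the strongest stretch lay away from the start sites, and whether it belongs to a control region was not checked. Over all 23898 genes with a stretch, the strongest was lost in 33.3%.

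Genes next to the 6 in their imprinted domains were mixed. Of 13 neighbours 12 had a stretch, and the strongest was lost in UHRF1KO at 2, at Copg2, where it is the Mest stretch itself, and at Osbpl1a beside Impact, where the share over all genes was 33.3%. The strongest was called in both UHRF1KO libraries at 5 of the 12. Counted gene by gene, 17 of the 41 stretches were lost, against 29.3% of all stretches. The 17 include the Mest stretch, counted at Copg2. Ppp1r9a, a neighbour of Peg10 that binds actin and protein phosphatase 1, had 5956 and 4388 reads in WT and 4248 and 4797 in UHRF1KO at its strongest stretch, and Calcr, the calcitonin receptor, had 420 and 451 in WT and 266 and 694 in UHRF1KO. The 2 genotypes overlapped at both. Klf14, an imprinted transcription factor near Mest, had start-site peaks of 203 and 205 reads in WT, none in UHRF1KO replicate 1 and 56 reads in UHRF1KO replicate 2. Among 10 paralogs of the 6 genes, Rtl1 alone had a start-site peak in both WT libraries and it was kept in UHRF1KO replicate 2, and the strongest stretch was lost at 3 of 8.

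Likeness over the 6 libraries was measured as the Euclidean distance between profiles of the strongest start-site log2 fold, with 0 where no peak was called, to the mean profile of Plagl1, Mest, Impact and Grb10. The 5 nearest of the other genes were Pnpla1 (distance 0.298), Olfr223 (distance 0.347), H19 (distance 0.347), Wdr88 (distance 0.372) and Kcnq1ot1 (distance 0.386). Mest and Plagl1 themselves lay at 0.243 and 0.249, Impact at 0.820 and Grb10 at 0.902. Peg10 and Sgce had a profile of 0 in all libraries and lay at 3.26.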

How the data were processed

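The authors aligned H3K9me3 ChIP-seq reads with Bowtie2 2.3.4.3 to mm10, subsampled them and called peaks in each library, keeping duplicates; the submitters' processing notes name SICER 0.0.51 for this step and the study's methods the related epic2. The deposited lists give, for each peak, counts of ChIP and background reads, a p-value with its FDR, the log2 fold of ChIP over background, and a score, all made by the authors' peak caller. The background named in the methods is wild-type input, whereas the UHRF1KO lists hold other background reads than the WT and DHX9KO lists. Genes came from the deposited GTF, whose chromosome 2 was moved back by 2762 bp past the inserted reporter. Of 18 samples, 6 have a peak list, and the other 12 were not analysed here. The coordinates are 1-based mm10.

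Stretches, gene windows and start sites (plus and minus 1 kb) were compared by presence of a peak with Python 3.11.15, since the lists hold no reads outside peaks. Counts were tested with edgeR 4.0.16 (R 4.3.3), adjusted over all regions by Benjamini-Hochberg, with DESeq2 1.42.0 as an alternative. CpG islands were at least 200 bp with GC of at least 50% and an observed over expected CpG ratio of at least 0.6. The genes named are the 6 members, the lists of related genes, neighbours and paralogs, and the 5 nearest profiles; members and lists were chosen with earlier results of these data known. The count test was also run on simulated counts with 200 regions changed 2-fold, at a common dispersion taken from the real fit. The simulation did not vary the called length, so it did not try the offset. With the settings of UHRF1KO 194 of the 200 were recovered with 3 false calls, and with those of DHX9KO 193 with 15 false calls. PCR duplicates were kept, so counts need not be independent molecules.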

Additional observations from a re-analysis of the deposited data

How the results depend on the processing

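For UHRF1KO peak presence at the main site of each of the 6 genes, 9 alternatives were tried. All 54 values equalled the reported share of libraries, but most of them could not have moved. Settings that only remove peaks cannot add a peak at a site without one. Leaving out a WT library or admitting shorter stretches does not touch the UHRF1KO peaks. Leaving out a UHRF1KO library cannot change a share on which both libraries agree. Peg10 and Sgce share the same peak, which was counted for both. The counts over all features moved. With peaks at an FDR of at most 1e-10, 15314 stretches (28.5%) and 3226 start sites (44.6%) were lost in UHRF1KO, and Plagl1 joined the windows that lost every peak. With a log2 fold of at least 1 the values were 10625 stretches, 2129 windows and 1545 start sites, with an equal number of peaks per list 10598, 1777 and 1589, and with a 40 kb flank 2186 windows, none of them of the 6 genes. Grb10 joined Plagl1, Mest and Impact among the genes with a lost start site under that FDR, that log2 fold, an equal number of peaks per list and without UHRF1KO replicate 2. With no flank, Sgce joined Mest and Impact among the windows that lost every peak. The limit of 1.5 on the WT log2 fold, added after seeing the data, left 1826 lost stretches in UHRF1KO and 1105 in DHX9KO; counting any peak base as keeping a stretch gave 7278 in DHX9KO. Leaving out 1 library gave 31673 to 60531 stretches, 4089 to 8466 windows and 5292 to 9571 start sites lost in UHRF1KO, and 21042 to 26835 stretches in DHX9KO, the UHRF1KO extremes coming without UHRF1KO replicate 1 and without UHRF1KO replicate 2.

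Regions with changed counts in UHRF1KO numbered 217 by edgeR (76.0% of them lower), 107 by DESeq2 (87.9% lower), 303 without the length offset (55.1% lower), 0 when all regions called in all 4 libraries entered, 30 in a fit of all 6 libraries and 0 to 531 without 1 library. In DHX9KO they numbered 26, against 14 without the offset, 6 over all regions, 0 of 902 regions in the fit of all 6 libraries (91 lower and 43 higher at an unadjusted p under 0.05) and 10 to 736 without 1 library. Same-numbered libraries share only a number (correlation of deviations 0.064 in UHRF1KO and -0.070 in DHX9KO); with the replicate block the counts were 200 and 85. The Peg10 region in DHX9KO ranged from -0.33 to 0.16 without 1 library, and changed sign without DHX9KO replicate 2. The cause of these moves was not tested. The lists hold reads only inside called peaks, so a missing peak sets no upper limit on the H3K9me3 left there. UHRF1KO replicate 1 held 6703081 ChIP reads in peaks, the fewest of the 6 libraries. Whether weak peaks were missed in it was not tested.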
